A study of Mus musculus with 12 samples.

Results

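Kindlins and integrins are the adhesion genes described here: 2 kindlin genes (Fermt1 and Fermt2) and 8 integrin subunit genes (Itga2, Itga3, Itga5, Itga6, Itgav, Itgb1, Itgb3 and Itgb4), out of 19937 genes with a named probe set. A member was taken where a probe set carried its gene symbol alone, and each of the 10 had exactly 1 such probe set. Fermt1 was selected on its measured log2 values, for a large excess in the ΔSAP line over the control line, so contrasts of it that use either line are given as a description with no test. The other 9 were taken as family members. Total RNA was taken from 4 stable derivatives of 4T1 (mouse mammary epithelial carcinoma, BALB/cfC3H background), with 3 arrays for each line. The lines, as their labels name them, are 4T1-ΔSAP, 4T1-mutB1, 4T1-FL and 4T1-control. The names are taken to mean Mkl1 (now Mrtfa) without its SAP domain for ΔSAP, with a changed B1 region for mutB1 and in full length for FL, and the content of the control line is not given in the sources used here. All 4 lines were kept in 0.03% serum for 48 h before RNA extraction. Since there is 1 line for each construct, construct and line cannot be told apart, and p-values measure only the spread among replicate samples of a line, which may be technical.

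Integrins are heterodimeric cell surface receptors, each made of an α and a β subunit, that bind matrix proteins outside the cell and link to actin or intermediate filaments inside it. Kindlins bind the cytoplasmic tails of β subunits and act with talin to switch integrins to their active state, and kindlin-1, the product of Fermt1, is the kindlin typical of epithelia, whereas kindlin-2, the product of Fermt2, is expressed broadly. In mammary epithelium, integrins that recognise laminin and collagen hold cells on the basement membrane. Mkl1 responds to the state of actin and works as a partner of the transcription factor Srf, which binds a DNA element called the CArG box. Binding of Mkl1 to Srf is known to need the B1 region.

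Values are log2 expression values made by robust multi-array averaging (RMA). Array medians lay between 6.35 and 6.45, and a line mean under 6.35 is called low here, since its signal may be background. Between arrays, correlations ran from 0.995 to 0.997 within a line and from 0.988 to 0.995 across lines. The probe set of Mkl1 averaged 11.92 in ΔSAP, 11.29 in mutB1, 12.08 in FL and 9.27 in control. Of the 6 epithelial carcinoma markers looked at, Krt8 and Krt18 stood between 12.55 and 13.20 in every line, and Epcam, Cdh1, Krt7 and Krt19 were highest in ΔSAP and lowest in mutB1, where Krt19 was low (6.18). All 7 endothelial markers were low in all 4 lines. Of 7 leukocyte markers, 6 were low in mutB1 and 5 in each other line, Ptprc in all 4, while Cd68 stood at 8.53 to 9.58 and Cd3e, near the limit, at 6.32 to 6.51.

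Promoter sequences, as printed by RefSeq for mouse build GRCm38.p6, were available for 7 of the 10 genes as windows of 250 bases before and 50 bases from the annotated start. The windows of the kindlin pair and of Itga2, the α subunit whose RNA varied most between lines, are shown because Srf acts through DNA elements near start sites. Capitals mark matches on either strand to the CArG box, the TEAD element GGAATG, the AP-1 element TGANTCA, the E-box CACCTG or the GC box GGGCGG.
Fermt1 (chr2:132945987-132946286, minus strand): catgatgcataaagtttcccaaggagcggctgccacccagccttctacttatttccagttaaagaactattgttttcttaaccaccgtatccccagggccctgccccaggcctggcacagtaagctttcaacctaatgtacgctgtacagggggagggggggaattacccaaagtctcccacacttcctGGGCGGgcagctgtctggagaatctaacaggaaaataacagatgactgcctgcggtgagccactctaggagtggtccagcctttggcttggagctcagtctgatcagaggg
Fermt2 (chr14:45530016-45530315, minus strand): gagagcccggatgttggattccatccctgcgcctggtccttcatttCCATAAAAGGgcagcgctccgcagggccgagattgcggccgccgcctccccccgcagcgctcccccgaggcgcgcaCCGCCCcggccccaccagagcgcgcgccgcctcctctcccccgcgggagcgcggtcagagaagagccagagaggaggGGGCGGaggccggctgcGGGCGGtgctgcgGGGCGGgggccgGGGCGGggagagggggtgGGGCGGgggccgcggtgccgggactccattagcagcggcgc
Itga2 (chr13:114932051-114932350, minus strand): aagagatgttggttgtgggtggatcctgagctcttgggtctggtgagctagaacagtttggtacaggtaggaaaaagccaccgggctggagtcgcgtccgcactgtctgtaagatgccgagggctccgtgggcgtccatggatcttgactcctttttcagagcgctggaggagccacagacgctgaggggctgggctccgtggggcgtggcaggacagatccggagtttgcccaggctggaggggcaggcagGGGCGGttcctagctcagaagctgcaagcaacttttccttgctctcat
The Fermt2 window held a CArG box, CCATAAAAGG, starting at position -204 from the start site, and the other member windows held no match to it. A CArG box occurred in 1.63% of the 32851 windows of this length in the table. The Fermt1 window held a GC box at position -61 and none of the other elements, and the Itga2 window a GC box at position 3. GC boxes were found in 35.7% of all windows, TEAD elements in 14.7%, AP-1 elements in 7.81% and the E-box in 20.2%. Itgb1 had a TEAD element at position -7, and the windows of Itga3 held an E-box at position -195 and an AP-1 element at position 13. Every member with a window had a GC box. The GC content of the window was 53.0% for Fermt1 and 76.7% for Fermt2, against a median of 52.7% over all windows. A match describes the letters of the window only, and the absence of one says nothing about Srf elsewhere at the gene.

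Between mutB1 and FL, the lines not used to choose Fermt1, the kindlin genes went in opposite directions. Fermt1 had log2 values of 10.58, 10.75 and 10.71 in ΔSAP, 7.10, 7.09 and 7.08 in mutB1, 9.10, 9.15 and 9.09 in FL, and 5.44, 5.57 and 5.58 in control. No arrays of different lines overlapped, and the order ΔSAP, FL, mutB1, control held for every array. The line means were 10.68 ± 0.09, 7.09 ± 0.01, 9.11 ± 0.03 and 5.53 ± 0.08 for ΔSAP, mutB1, FL and control (SD, n = 3). The control mean was low, so differences from control may be understated. ΔSAP lay 5.15 above control on the log2 scale, the value for which the gene was chosen, FL 3.58 above control and mutB1 1.56 above control. The difference between lines not used in the choice was -2.02 ± 0.05 (SE) for mutB1 minus FL, 4.06-fold lower in mutB1 (limma adjusted p = 2.9e-09). Its error there is estimated from all 12 arrays, the ΔSAP and control arrays included, and in a fit of the mutB1 and FL arrays alone the adjusted p was 6.45e-06. In RNA from whole cultures, fewer cells that express a gene and less of its RNA per cell cannot be told apart.

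Fermt2, the broadly expressed kindlin, varied little. Its values were 10.93, 10.96 and 10.92 in ΔSAP, 11.18, 11.18 and 11.19 in mutB1, 10.95, 10.93 and 10.98 in FL, and 11.05, 11.05 and 11.04 in control. Every mutB1 array lay above every array of the other lines, and ΔSAP overlapped FL. Fermt2 was 0.24 ± 0.03 higher in mutB1 than in FL (adjusted p = 0.000199) and lower in ΔSAP than in mutB1 (-0.25 ± 0.03, adjusted p = 0.000174). The whole range of its line means was 0.25. That of Fermt1, 5.15, is the difference for which Fermt1 was chosen, so it is not set against this one. Fermt3, the kindlin of blood cells, was low in all lines, with means from 5.92 in control to 6.27 in FL.

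**Figure D1:**
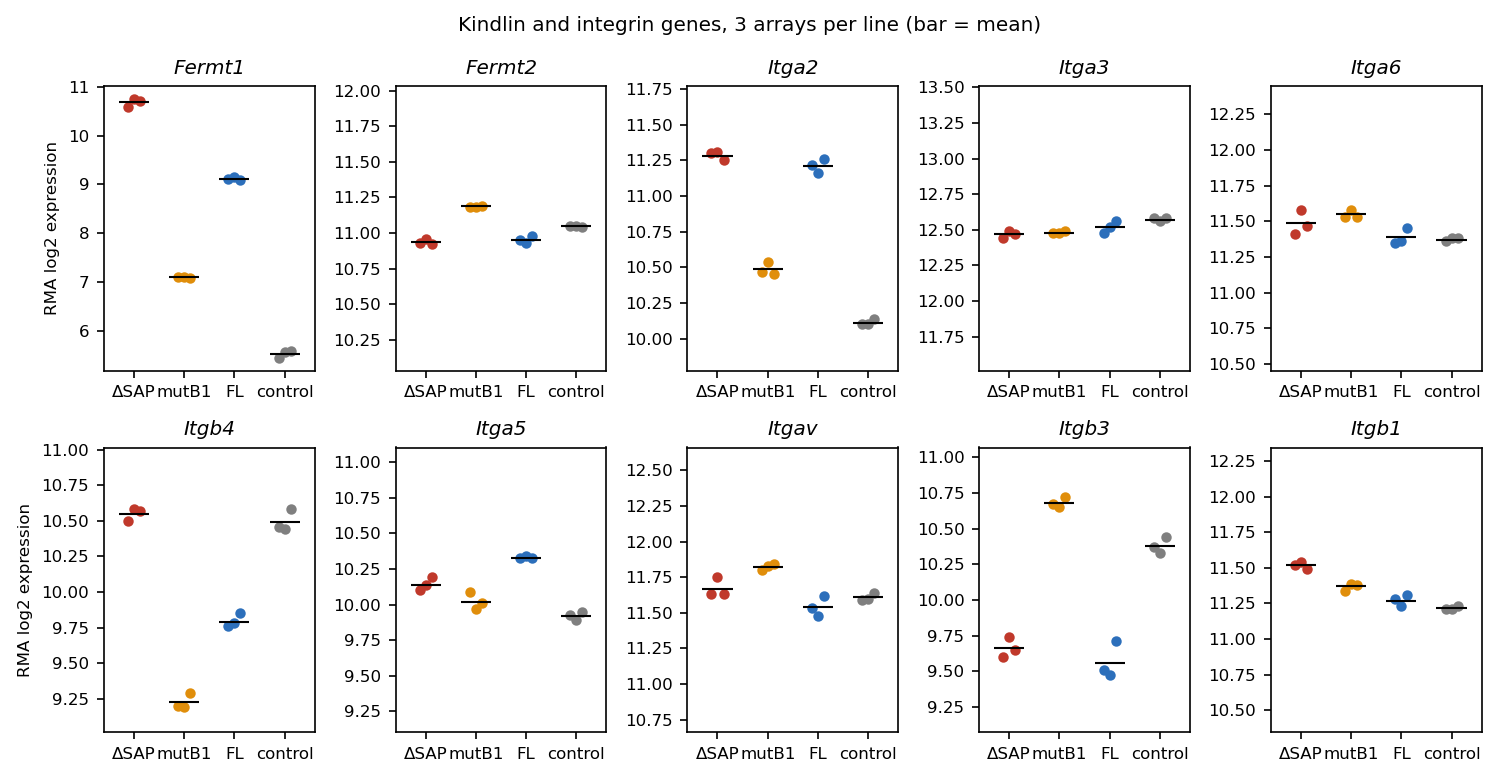
RMA log2 expression of each kindlin and integrin gene in the 3 arrays of the ΔSAP, mutB1, FL and control lines; points are arrays and bars are means. The axis of each integrin and of Fermt2 spans the same log2 width, and that of Fermt1 is wider. Fermt1, chosen for its excess in ΔSAP over control, runs from 5.44 to 10.75, and Itga3 stays between 12.44 and 12.58.

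Among the laminin receptor subunits, Itgb4 differed strongly between lines and its only known partner, Itga6, did not. The β4 subunit pairs with α6 to form the receptor of hemidesmosomes, which anchor epithelial cells to laminin. Itgb4 had 10.50, 10.58 and 10.57 in ΔSAP, 9.20, 9.19 and 9.29 in mutB1, 9.76, 9.78 and 9.85 in FL, and 10.46, 10.44 and 10.58 in control. ΔSAP and control overlapped at the top, FL lay below them and mutB1 lowest. Against FL, Itgb4 was 0.76 ± 0.05 higher in ΔSAP (adjusted p = 5.7e-06) and lower in mutB1 (-0.57 ± 0.05, adjusted p = 1.41e-05). Against control, it fell by 1.27 ± 0.05 in mutB1, a 2.41-fold difference (adjusted p = 3.84e-08), and it was also lower in FL (-0.70 ± 0.05, adjusted p = 2.29e-06). ΔSAP exceeded mutB1 by 1.32 ± 0.05, or 2.50-fold (adjusted p = 2.89e-08).

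Itga6, which also pairs with β1, read 11.41, 11.58 and 11.47 in ΔSAP, 11.53, 11.58 and 11.53 in mutB1, 11.35, 11.36 and 11.45 in FL, and 11.36, 11.38 and 11.38 in control. It passed the test in none of the 5 tested comparisons, with adjusted p from 0.0288 to 0.866. The largest tested difference was mutB1 over control, 0.17 (95% interval 0.07 to 0.28). Itga3, the α subunit of the other main epithelial laminin receptor, α3β1, had line means of 12.47 ± 0.02 in ΔSAP, 12.48 ± 0.01 in mutB1, 12.52 ± 0.04 in FL and 12.57 ± 0.01 in control (SD, n = 3). No tested comparison of Itga3 passed (adjusted p 0.104 to 0.744), and its intervals reached no farther than 0.16 below 0 and 0.06 above it. Over the 4 lines, 17032 of 19937 genes had a wider range of line means than Itga3.

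Itga2, the α subunit of the collagen receptor α2β1, was higher in every construct line than in control. Its values were 11.30, 11.31 and 11.25 in ΔSAP, 10.47, 10.54 and 10.45 in mutB1, 11.22, 11.16 and 11.26 in FL, and 10.10, 10.10 and 10.14 in control. ΔSAP and FL formed an overlapping upper pair, mutB1 lay between, and the control arrays were lowest. Over control, Itga2 rose by 1.10 ± 0.04 in FL, a 2.15-fold difference (adjusted p = 2.03e-08), and by 0.37 ± 0.04 in mutB1 (adjusted p = 8.62e-05). It was lower in mutB1 than in FL (-0.73 ± 0.04, adjusted p = 5.27e-07), whereas ΔSAP and FL differed by 0.07 (95% interval -0.02 to 0.16, adjusted p = 0.327). ΔSAP was 0.80 ± 0.04 higher than mutB1 (adjusted p = 2.81e-07) and 1.17 above control, the second value given with no test.

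The receptors for fibronectin and vitronectin went different ways. Itgb3, which with αv forms the vitronectin receptor, had 9.60, 9.74 and 9.65 in ΔSAP, 10.67, 10.65 and 10.72 in mutB1, 9.51, 9.47 and 9.71 in FL, and 10.37, 10.33 and 10.44 in control. The ΔSAP and FL arrays overlapped and lay below all control arrays, and the mutB1 arrays lay above them. Itgb3 was 1.12 ± 0.07 higher in mutB1 than in FL, a 2.17-fold difference (adjusted p = 7.85e-07). ΔSAP and FL differed by 0.10 (95% interval -0.05 to 0.25, adjusted p = 0.393). The difference was -0.82 ± 0.07 for FL minus control (adjusted p = 5.96e-06) and -1.02 ± 0.07 for ΔSAP minus mutB1, 2.03-fold lower in ΔSAP (adjusted p = 1.77e-06).

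Itgav, the αv partner of β3 and of other β subunits, moved much less. Its values were 11.63, 11.75 and 11.63 in ΔSAP, 11.80, 11.83 and 11.84 in mutB1, 11.53, 11.48 and 11.62 in FL, and 11.59, 11.60 and 11.64 in control. The mutB1 arrays lay above all others, and FL and control overlapped. Itgav was 0.28 ± 0.05 higher in mutB1 than in FL (adjusted p = 0.00131), a call lost in a fit of those 6 arrays alone (adjusted p = 0.0106). In ΔSAP it lay 0.13 above FL, which did not pass (95% interval 0.02 to 0.23, adjusted p = 0.099).

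Itga5, the α subunit of the fibronectin receptor α5β1, was highest in FL. Its values were 10.10, 10.14 and 10.19 in ΔSAP, 10.09, 9.97 and 10.01 in mutB1, 10.33, 10.34 and 10.33 in FL, and 9.93, 9.89 and 9.95 in control. No FL array overlapped an array of another line. Itga5 was 0.41 ± 0.04 higher in FL than in control (adjusted p = 2.44e-05) and lower in mutB1 than in FL (-0.31 ± 0.04, adjusted p = 0.00022). It was also lower in ΔSAP than in FL (-0.19 ± 0.04, adjusted p = 0.00762). That last call was lost when any of 10 of the 12 arrays was left out, all except mutB1 replicates 1 and 2 (adjusted p 0.0114 to 0.0304), after median centring of the arrays (adjusted p = 0.1), and in a fit of these 6 arrays alone (adjusted p = 0.0366).

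Itgb1, the β subunit shared by α2, α3, α5, α6 and αv, was bright in every line. It had 11.52, 11.54 and 11.49 in ΔSAP, 11.34, 11.39 and 11.38 in mutB1, 11.28, 11.23 and 11.31 in FL, and 11.21, 11.21 and 11.23 in control. The ΔSAP arrays were above all others and FL overlapped control. Itgb1 was 0.25 ± 0.03 higher in ΔSAP than in FL (adjusted p = 0.000686), and this call was lost in a fit of these 6 arrays alone (adjusted p = 0.0173). The excess of mutB1 over control was 0.15 (adjusted p = 0.0109) and that of ΔSAP over mutB1 was 0.15 (adjusted p = 0.011), both just short of the threshold of 0.01.

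Set side by side as whole comparisons, mutB1 against FL had the most members called, and Fermt1 was counted only there. Of the 10 genes, 3 were higher in mutB1 (Fermt2, Itgav and Itgb3) and 4 lower (Fermt1, Itga2, Itga5 and Itgb4). In all, 9.0% of the 34760 probe sets were called higher and 8.82% lower in this comparison at an adjusted p of at most 0.01. These shares, like those given below, include probe sets with low signal. Every member averaged at least 8.1 over the 12 arrays, so the shares are not matched for level. A fit of only the probe sets with a mean of at least 6 called 6836, against 6194 in the main fit. It tested fewer probe sets than the main fit, so the share called was higher among them, by an amount not given here. The remaining members, Itga3, Itga6 and Itgb1, had adjusted p from 0.0353 to 0.512. By the stricter filters of the series design text, which also require a 2-fold difference and an average log2 value of 4, 2 members were called, Fermt1 and Itgb3, against 1.60% of probe sets. The median change of the 10 was 0.03, against 0.02 over all genes.

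In ΔSAP against FL, 2 of the 9 members other than Fermt1 were higher (Itgb1 and Itgb4) and 1 lower (Itga5). Over all probe sets, 5.70% were called higher and 5.73% lower. By the filters of the design text limma called 0 of the 9, against 0.503% of probe sets, while 4 of the 9 had an unadjusted p under 0.05. Fermt1 lay 1.57 higher in ΔSAP than in FL, given as a description. Fermt2 (difference -0.01, 95% interval -0.08 to 0.06) and Itga3 (-0.05, interval -0.13 to 0.02) did not pass. In a fit of the ΔSAP and FL arrays alone, 1 of the 9, Itgb4, was still called, and 1715 of all probe sets, against 3972 in the main fit.

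**Figure D2:**
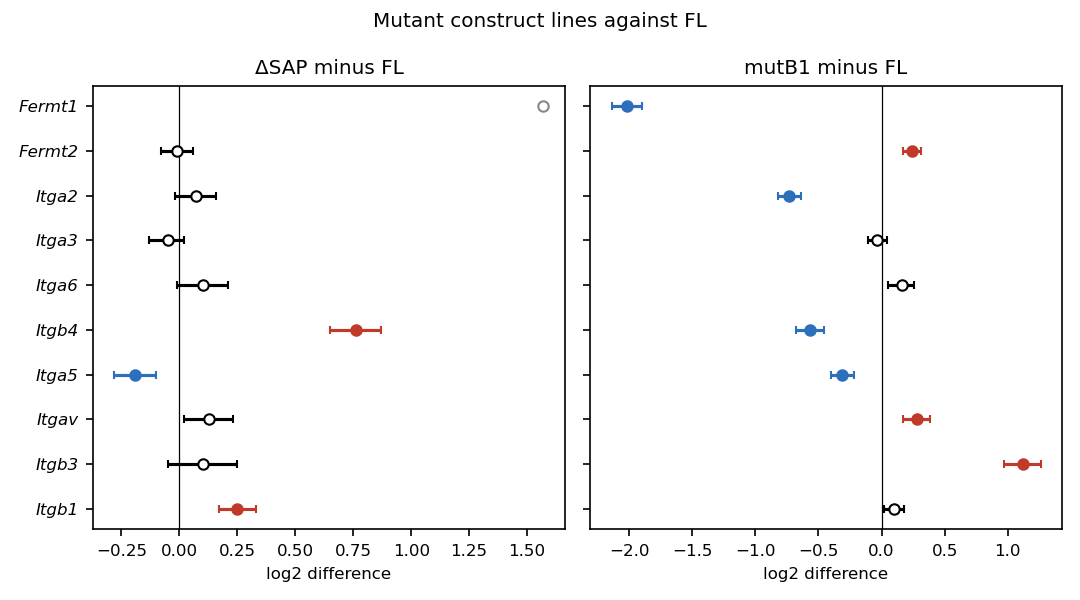
Log2 difference of each gene in ΔSAP minus FL (left) and mutB1 minus FL (right), with 95% intervals from the fit of all 12 arrays. Filled red points were called higher and filled blue points lower at an adjusted p of at most 0.01, open black points were not called, and the open grey point is a description without a test. Itgb4 lies at 0.76 in ΔSAP and at -0.57 in mutB1.

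ΔSAP against mutB1 compares the lines of the mutant constructs with each other directly. Of the 9 members other than Fermt1, Itga2 and Itgb4 were higher in ΔSAP and Fermt2 and Itgb3 lower. The shares over all probe sets were 7.07% higher and 8.0% lower. Itgb3 and Itgb4 also met the filters of the design text, against 1.42% of probe sets. Fermt1 lay 3.59 higher in ΔSAP, as a description. The comparisons with FL share the FL arrays, so their changes are not independent of each other.

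Against control, FL had Itga2 and Itga5 higher and Itgb3 and Itgb4 lower among the 9 members other than Fermt1, with 9.61% of all probe sets called higher and 10.4% lower. Itga2 alone met the filters of the design text, as did 1.83% of probe sets. The other 5 members had adjusted p from 0.0401 to 0.866. In mutB1 against control, Fermt2, Itga2, Itgav and Itgb3 were called higher and Itgb4 lower, with 5.83% of probe sets called higher and 6.89% lower. Itgb4 alone met the filters of the design text, against 1.21% of probe sets. The calls of Fermt2 (0.14), Itgav (0.21) and Itgb3 (0.30) had adjusted p of 0.00753 to 0.00992 and were fragile. The count of 5 became 2, Itga2 and Itgb4, after median centring and without ΔSAP replicate 1 or 3, any mutB1 replicate, FL replicate 1 or any control replicate. It was 4 without ΔSAP replicate 2 or FL replicate 2, 3 in a fit of these 6 arrays alone and 8 with an intensity trend. Calls over all probe sets changed too, from 4422 to 3482 after median centring, 2624 in the fit of these 6 arrays and 5224 with the trend.

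For ΔSAP against control, the contrast used to choose Fermt1, the values are a description. Itga2 lay 1.17 higher in ΔSAP, Itgb1 0.30 higher, Itga5 0.22 higher and Itga6 0.12 higher. Itgb3 averaged 9.66 in ΔSAP and 10.38 in control, a difference of -0.72. Fermt2 and Itga3 differed by -0.11 each, and Itgb4 and Itgav by 0.06 each.

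**Figure D3:**
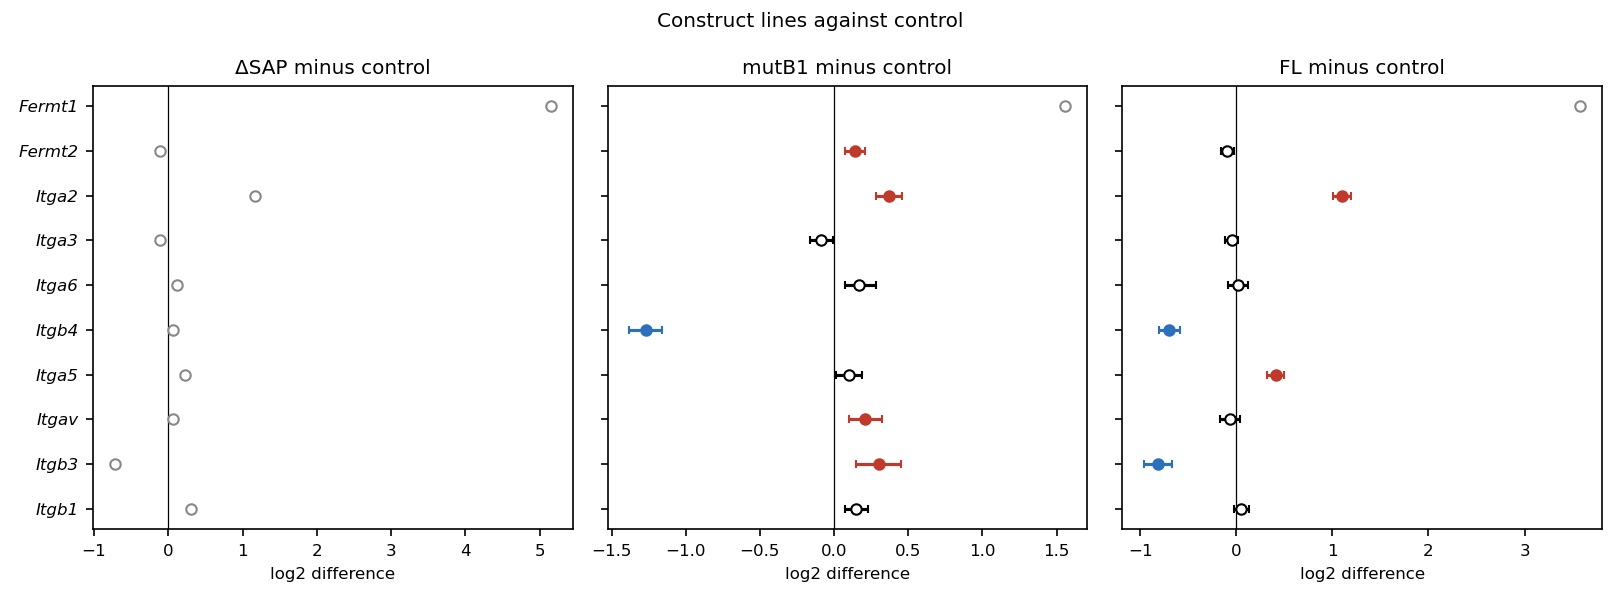
Log2 difference of each gene in ΔSAP, mutB1 and FL minus control, with 95% intervals from the fit of all 12 arrays where tested; the horizontal scales differ between panels. Colours are as in the plot of differences from FL, and open grey points are descriptions without a test. Itgb4 lies at 0.06 in ΔSAP, -1.27 in mutB1 and -0.70 in FL.

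Across the 4 lines, Fermt1 had a range of line means of 5.15, the difference for which it was chosen. The range was 1.32 for Itgb4, 1.17 for Itga2, 1.12 for Itgb3 and 0.11 to 0.41 for the other 6 members. The median range over 19937 genes was 0.22, and 519 genes had a wider range than Itgb4, 672 than Itga2 and 747 than Itgb3. Those 3 integrin genes were named for their wide ranges, so a partner among the other 6 members had to have a narrower one. The partner ranges were 0.17 for Itga6 (partner of Itgb4), 0.30 for Itgb1 (partner of Itga2) and 0.28 for Itgav (partner of Itgb3).

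The other 18 integrin subunits were listed with earlier results of these data known. Itgal, Itgam and Itgax, subunits of leukocyte integrins, and Itgae, Itga4, Itga9, Itga11 and Itgb6 were low in all 4 lines, whereas Itgad, another leukocyte subunit, read 7.53 to 7.69. Itgb2, known as the β subunit of leukocyte integrins, was bright (11.37 ± 0.04 in ΔSAP, 10.94 ± 0.02 in mutB1, 11.48 ± 0.03 in FL and 11.48 ± 0.04 in control), while the pan-leukocyte marker Ptprc stood at 4.52 to 4.70. In mutB1 against FL, 3 of the 18 were higher and 4 lower, where the shares over all probe sets were 9.0% and 8.82%. Itgb7, a β subunit known from lymphocyte homing, was lower in mutB1 (-2.19 ± 0.07, adjusted p = 1.52e-08), as was Itgb2 (-0.54 ± 0.04), whereas Itga8 was 1.09 ± 0.05 higher (adjusted p = 2.46e-07) and the collagen receptor subunit Itga1 0.71 ± 0.04 higher.

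Itgb7 averaged 8.15 ± 0.12 in ΔSAP, 6.79 ± 0.06 in mutB1, 8.98 ± 0.03 in FL and 6.95 ± 0.13 in control (SD, n = 3). The FL and ΔSAP lines were thus high and the other lines near each other. In ΔSAP against FL, 4 of the 18 were higher and 1 lower: Itgb8, an αv partner, changed by 0.85 ± 0.07 (adjusted p = 3.6e-05) over a low FL mean of 5.58, Itga1 by 0.39 and Itgb5 by 0.36, and Itgb7 by -0.83 ± 0.07 (adjusted p = 3.82e-05). In FL against control 3 were higher and 4 lower, led by Itgb7 (2.03 ± 0.07, adjusted p = 1.96e-08), Itga1 (-0.89), Itga8 (-0.78) and Itga7 (0.56). In mutB1 against control 1 was higher and 2 lower, Itga8 by 0.31 and Itga10 and Itgb2 by -0.54 each. The Itga10 call was lost without control replicate 1 (adjusted p = 0.0105), and that of Itga8 without mutB1 replicate 3 or control replicate 1 (adjusted p 0.0101 to 0.0105). Over all probe sets, 5.70% were called higher and 5.73% lower in ΔSAP against FL. These shares were 9.61% and 10.4% in FL against control, and 5.83% and 6.89% in mutB1 against control.

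**Figure D4:**
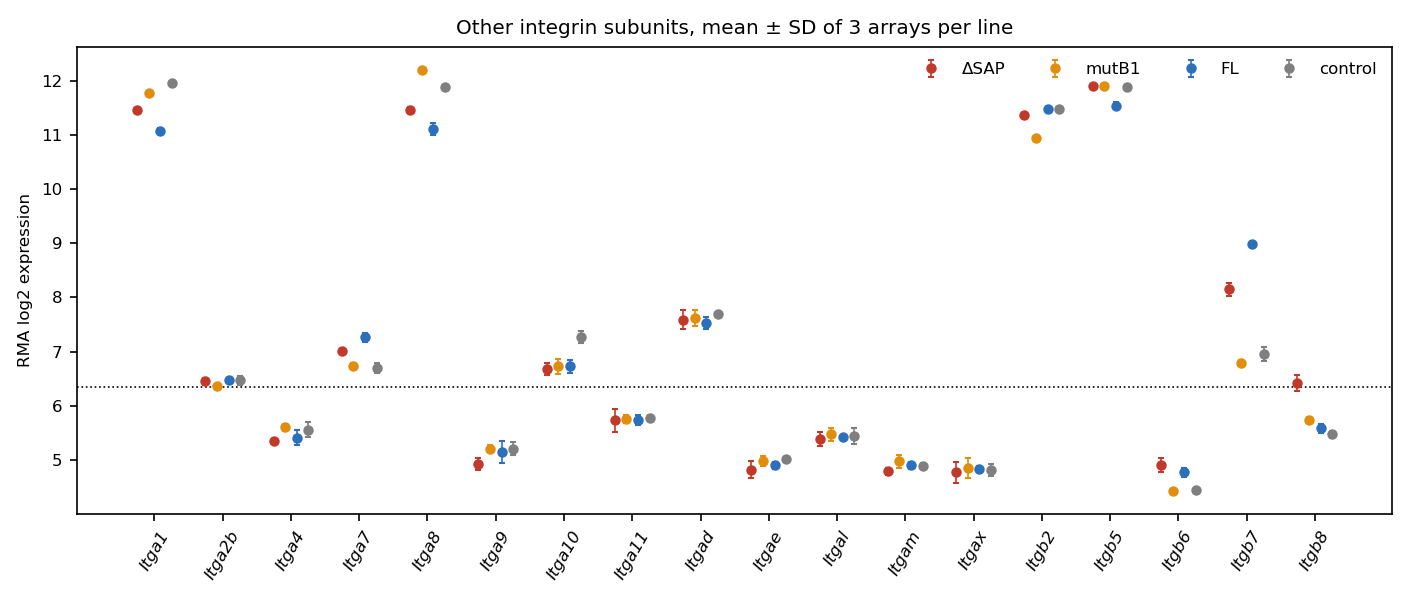
Mean RMA log2 expression (± SD of 3 arrays) of 18 further integrin subunits in ΔSAP, mutB1, FL and control; the dotted line marks 6.35, under which a mean is called low. Itgb7 reads 8.98 in FL and 8.15 in ΔSAP but 6.79 in mutB1 and 6.95 in control, and Itga1, Itga8, Itgb2 and Itgb5 are bright in all lines.

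Regulators that switch integrins on or off had line means within 1 log2 unit of each other. Of 14 measured, including the talins and Rap1 proteins, 3 were higher and 3 lower in mutB1 against FL, 1 and 3 in ΔSAP against FL, 4 and 3 in FL against control and 2 and 1 in mutB1 against control. In that order, the shares over all probe sets were 9.0% and 8.82%, 5.70% and 5.73%, 9.61% and 10.4%, and 5.83% and 6.89%. In mutB1 against FL, the β tail binding adaptors Dok1 and Dab2 were 0.42 and 0.36 higher (0.17 for the mean of both Dab2 probe sets), and Itgb1bp1, an inhibitor of β1 that competes with kindlin and talin at its tail, was lower (-0.35 ± 0.04, adjusted p = 0.000133), as was the small GTPase Rap1a (-0.33). In ΔSAP against FL, Dok1 changed by -0.52 ± 0.04 (adjusted p = 1.44e-05), the Rap1 effector Apbb1ip by -0.32, Slc3a2 (CD98 heavy chain) by -0.26 and Tln2 by 0.25. The Tln2 call was lost without ΔSAP replicate 2 or 3 or FL replicate 1 or 2 (adjusted p 0.0131 to 0.0195).

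Against control, Apbb1ip was 0.48 ± 0.05 higher in FL and 0.62 ± 0.05 higher in mutB1, and Slc3a2 0.40 and 0.24 higher. Dok1 (-0.35) and Dab2 (-0.26) were lower in FL than in control, the Dab2 call being lost for the mean of both probe sets (-0.05, adjusted p = 0.429), and Itgb1bp1 was lower in mutB1 than in control (-0.34). Talin 1 (Tln1), the partner of kindlins at the β tail, was bright and nearly level, with means of 10.99 in ΔSAP, 11.02 in mutB1, 10.87 in FL and 10.96 in control.

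Among the 24 measured adaptors and kinases of adhesion complexes, tensin 1 (Tns1), which ties β tails to actin, differed most. Its means were 8.32 ± 0.06 in ΔSAP, 10.69 ± 0.03 in mutB1, 8.23 ± 0.15 in FL and 10.46 ± 0.04 in control. It was 2.46 ± 0.07 higher in mutB1 than in FL (adjusted p = 4.21e-09), and FL lay below control (-2.23 ± 0.07, adjusted p = 6.64e-09). Tns1 has 6 probe sets, of which the brightest is used. In mutB1 against FL, 5 of them lay between 1.78 and 2.52, and the sixth at 0.10 (adjusted p = 0.477), and their mean changed by 1.87 (adjusted p = 1.15e-09). Of the 24, 8 were higher and 6 lower in mutB1 against FL, 1 and 5 in ΔSAP against FL, 3 and 5 in FL against control and 4 and 5 in mutB1 against control. In that order, the shares over all probe sets were 9.0% and 8.82%, 5.70% and 5.73%, 9.61% and 10.4%, and 5.83% and 6.89%. After Tns1, mutB1 against FL was led by Lims2 (-0.70 ± 0.06), whose product PINCH-2 binds integrin-linked kinase, and by Tns2 and α-actinin 1 (Actn1, -0.31). ΔSAP against FL was led by Lims2 (-0.33), zyxin (Zyx, -0.27), Tns2 (0.25) and Tns3 (-0.24), with adjusted p from 0.000519 to 0.00222. The Lims2 call was lost without ΔSAP replicate 3 or FL replicate 3 (adjusted p 0.0106 to 0.0111), and all 4 calls in a fit of these 6 arrays alone (adjusted p 0.0104 to 0.0183).

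In FL against control, Lims2 was 0.77 higher over a low control mean of 6.29, and Tns2 (-0.67) and the kinase Src (-0.32) were lower. In mutB1 against control, the parvin Parvb (0.40), Zyx (0.28) and the integrin-linked kinase Ilk (0.24) were higher and Actn1 (-0.39) lower.

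Of 23 measured ligand genes, 13 were higher and 4 lower in mutB1 against FL, and 5 higher and 13 lower in FL against control. In that order, the shares over all probe sets were 9.0% and 8.82%, and 9.61% and 10.4%. The list was chosen with earlier results of these data known, and the shares are not matched for level. The median change was 0.23 in mutB1 against FL and -0.22 in FL against control, where all genes had medians of 0.02 and -0.03. Chains of laminin-332, the ligand of α6β4 and α3β1, stood out. Lamb3 averaged 7.91 in ΔSAP, 6.35 in mutB1, 7.55 in FL and 6.61 in control, and Lama3 6.60, 5.72, 6.51 and 5.77 in the same order of lines. The Lama3 means of mutB1 and control were low and the Lamb3 mean of mutB1 lay at the limit, so the sizes of these differences are uncertain. Lamb3 was lower in mutB1 than in FL (-1.21 ± 0.06, adjusted p = 2.83e-07) and 0.94 ± 0.06 higher in FL than in control (adjusted p = 1.22e-06). Laminin α4 (Lama4) was 3.02 ± 0.07 higher in mutB1 than in FL (adjusted p = 1.42e-09) and 2.91 ± 0.07 higher than in control, in both cases over low means of 4.93 and 5.03.

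The α8β1 ligand nephronectin (Npnt) was lower in FL than in control (-1.26 ± 0.06, adjusted p = 1.04e-07) and 0.94 ± 0.06 higher in ΔSAP than in FL (adjusted p = 4.28e-06). Tenascin-C (Tnc) was lower in mutB1 than in FL (-1.47 ± 0.12) and 1.94 ± 0.12 higher in FL than in control, with low means in mutB1 and control. Icam1, the β2 integrin ligand, was highest in FL, changing by -1.33 in mutB1 and -1.57 in ΔSAP against FL and by 1.21 in FL against control. In ΔSAP against FL, 9 ligands were higher and 3 lower, among them Vcam1 (-0.70) and Col4a2 (0.51). In mutB1 against control, 2 were higher and 5 lower, with Npnt at -0.41, Tgfb3 at -0.39 and Ccn2 at 0.22. The Ccn2 call was lost without any ΔSAP or control replicate, mutB1 replicate 2 or 3 or FL replicate 1 (adjusted p 0.0122 to 0.0331). Over all probe sets, 5.70% were called higher and 5.73% lower in ΔSAP against FL, and 5.83% and 6.89% in mutB1 against control.

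Partners of α6β4 and α3β1 in hemidesmosomes and tetraspanin complexes changed by small amounts, and Col17a1 and Krt5 were low in all lines. The tetraspanin Cd151, which binds laminin-binding integrins, averaged 11.86 in ΔSAP, 12.11 in mutB1, 11.56 in FL and 12.01 in control. It was 0.55 ± 0.03 higher in mutB1 than in FL (adjusted p = 1.26e-06), 0.31 ± 0.03 higher in ΔSAP than in FL (adjusted p = 0.000172), while FL lay below control (-0.45 ± 0.03, adjusted p = 4.31e-06). Of the 11 genes, 3 were higher and 1 lower in mutB1 against FL, 3 and 0 in ΔSAP against FL and 1 and 4 in FL against control. In that order, the shares over all probe sets were 9.0% and 8.82%, 5.70% and 5.73%, and 9.61% and 10.4%. Cd82 and Cd81 were 0.48 and 0.31 higher in mutB1 than in FL, 0.17 each in ΔSAP over FL, and lower in FL than in control (-0.51 and -0.29). The basal keratin Krt14 was lower in mutB1 than in FL (-0.62) and higher in FL than in control (0.58), over low means of 6.20 and 6.24. Limma called 0 of the 11 in mutB1 against control, where 3 had an unadjusted p under 0.05. There, 5.83% of all probe sets were called higher and 6.89% lower. The ΔSAP calls of Cd81 and Cd82 against FL were lost without any 1 of the ΔSAP or FL replicates, except ΔSAP replicate 2 for Cd82. The Cd81 call was also lost without mutB1 replicate 2 or control replicate 1. The adjusted p without those arrays was 0.0108 to 0.0294 for Cd81 and 0.0127 to 0.024 for Cd82.

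In ΔSAP against control, 6.96% of probe sets were called higher and 7.83% lower. There, 4 of the 18 other integrin subunits were higher and 3 lower, led by Itgb7 (1.20), Itgb8 (0.95), Itga10 (-0.59) and Itga1 (-0.49). The activator list had 2 higher and 2 lower, with Dok1 at -0.87, Krit1 at 0.28, Dab2 at -0.28 (-0.11 for the mean of its probe sets, not called) and Rap1a at 0.23. The adaptor list had 3 higher and 8 lower, with Tns1 at -2.14, Lims2 at 0.44, Tns2 at -0.42 and Tns3 at -0.34. Of the ligands, 3 were higher and 6 lower, led by Tnc (1.87), Lamb3 (1.30), Vcam1 (-1.14) and Lama3 (0.83), and of the partner list 1 was higher (Dst, 0.22) and 2 lower (Cd82, -0.34, and Cd9, -0.28). The control means of Itgb8 (5.47), Lims2 (6.29), Tnc (5.83) and Lama3 (5.77) were low, so the sizes and order of these differences are uncertain. The call of Rap1a was lost without ΔSAP replicate 2 or 3 or control replicate 1 or 2 (adjusted p 0.0115 to 0.0173), and that of Dst without ΔSAP replicate 3 or control replicate 1 or 2 (adjusted p 0.0135 to 0.0174).

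**Figure D5:**
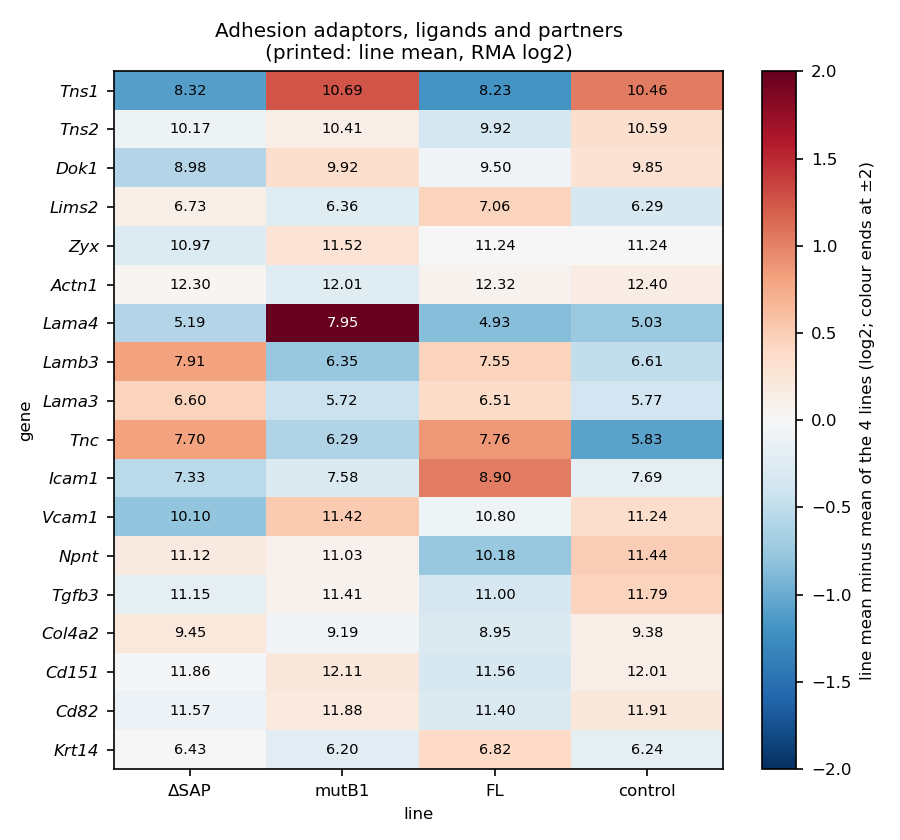
Line means (printed, RMA log2) of 18 adaptor, ligand and partner genes named in the text in ΔSAP, mutB1, FL and control, coloured by the distance of the line mean from the mean of the 4 lines. Tns1 reads 8.32 in ΔSAP and 8.23 in FL but 10.69 in mutB1 and 10.46 in control, and Lama4 reads 7.95 in mutB1 and at most 5.19 in the other lines.

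Markers of other cell types differed between some of the lines, and their part in the results was not tested. Of the 8 fibroblast markers, 3 were called higher (Pdgfra, Pdgfrb and Fbln1) and 0 lower in mutB1 against FL. The shares over all probe sets were 9.0% and 8.82%. Pdgfrb, the largest of the 3 differences, averaged 5.92 in ΔSAP, 10.29 in mutB1, 6.33 in FL and 6.85 in control. Dcn (-0.29, limma adjusted p = 0.0372) and Fap (-0.44, adjusted p = 0.0241) lay lower in mutB1 than in FL and were not called. The 8 ran from 3.42 to 10.87 in mutB1 and from 3.37 to 9.38 in FL, while Lum, Thy1 and Fap were low in all lines. Of the 6 epithelial markers, 1 was higher and 4 lower in mutB1 against FL, and all 6 were higher in ΔSAP than in FL. In ΔSAP against FL, 5.70% of all probe sets were called higher. Of 7 leukocyte markers, only Cd68 passed in mutB1 against FL, where it was lower, with means of 8.53 in mutB1 and 9.58 in FL.

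The genes most like Fermt1 over the 12 arrays, by the mean absolute difference between profiles centred on their own mean, were Mal2 (0.45), Gca (0.49), Tmc4 (0.50) and Nipal2 (0.51), on the log2 scale and out of 12199 genes with a mean of at least 6. Mal2 averaged 10.04 in ΔSAP, 5.78 in mutB1, 8.87 in FL and 5.63 in control. The genes most like Itgb4 were Sorl1 and Trpv3 (0.09 each) and Bhlhe41 and Crip2 (0.10 each). Those most like Itgb3 were Tiam1 and Trim62 (0.05 each), Arrb1 (0.07) and Rgs2 (0.08). Tiam1 averaged 9.81 in ΔSAP, 10.86 in mutB1, 9.84 in FL and 10.62 in control.

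Neighbouring genes in the RefSeq order, the nearest 2 measured protein-coding genes on each side, are described for the members with a wide range. Those of the other members were looked at too. Their ranges of line means went from 0.06 (Gpr84, near Itga5) to 1.58 (Fam171b, next to Itgav). Beside Fermt1, Lrrn4, Bmp2 and Hao1 were low in all 4 lines, and Crls1 averaged 8.63 in ΔSAP, 8.48 in mutB1, 8.67 in FL and 8.53 in control. The neighbours' line means spanned 0.03 to 0.60. The range of Fermt1, 5.15, is the difference for which it was chosen, so it is not set against theirs. Itga1 lies next to Itga2 and was 0.71 ± 0.04 higher in mutB1 than in FL (adjusted p = 8.7e-07), where Itga2 was lower. Of its other neighbours, Pelo changed by 0.50 in mutB1 minus FL (adjusted p = 0.000656). Fst changed by -0.22 (adjusted p = 0.0295) and Mocs2 by -0.16 (adjusted p = 0.125), neither of them called. Beside Itgb4, the line means of Smim6, Sap30bp and Unk spanned at most 0.29, and those of Unc13d 1.27 (mutB1 minus FL -1.27, adjusted p = 5.73e-07). Beside Itgb3, Cdc27, Myl4, Efcab3 and Mettl2 spanned 0.07 to 0.44.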

How the data were processed

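RNA of 3 replicates of each of 4 stable 4T1 lines was hybridised to Affymetrix Mouse Gene 1.0 ST arrays, from 100 ng of total RNA per sample, per the labels' protocols. For each probe set the authors deposited a log2 value made with RMA (background correction, quantile normalization, probe summarization) in the affy package of Bioconductor 2.4, per the series design text. The submitters' processing notes name R 2.10.0. The sources used here do not give the probe set definition, the genome build or scan dates. RMA gives no detection call, and precision is limited by the number of arrays.

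GEO's platform annotation gave 21640 of 34760 probe sets a single symbol, 1321 several and 11799 none. Symbols were updated through Entrez identifiers with RefSeq's GRCm38.p6 gene table, which matched 21553. The brightest probe set by the mean over 12 arrays stands for a gene. A probe set with several symbols named no gene, and some genes of the lists are not reported here. Lines were compared with limma 3.58.1 in R 4.3.3 in a single fit of 12 arrays with 4 line means, Benjamini-Hochberg adjusted over all probe sets. A gene was called at an adjusted p of at most 0.01. The code was tested on simulated data.

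Besides the 10 members, up to 4 genes with the largest called change per list and comparison are named, from 5 lists, in the comparisons with FL and control. Genes alike were the nearest 4 by profile. Neighbours were added after the values were seen. Members and lists were chosen with earlier results of these data known. Alternatives were 2 further normalizations, an intensity trend, a fit of the lines compared alone, a minimum mean of 6, the replicate block, averaging a gene's probe sets, a threshold of 0.05 and leaving out each array.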

Additional observations from a re-analysis of the deposited data

How the results depend on the processing

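With the added fold and level filters of the design text, the counts of members called became 2 in mutB1 against FL, 0 in ΔSAP against FL, 1 in FL against control, 1 in mutB1 against control and 2 in ΔSAP against mutB1, against 7, 3, 4, 5 and 4 without a minimum fold. In a fit of the lines compared alone, the count was 1 in ΔSAP against FL and 3 in mutB1 against control. In mutB1 against control it was 2 after median centring and 8 with an intensity trend, and leaving out each array gave 2 to 5. Over all probe sets, calls in mutB1 against control also changed, from 4422 to 3482 after median centring and 5224 with the trend. They were 3334 to 4228 when each array was left out. For the members, leaving out each array gave 7 in every case for mutB1 against FL and 2 to 3 for ΔSAP against FL. It gave 4 in every case for FL against control and ΔSAP against mutB1. Apart from the replicate block, given below, the other settings kept these counts within 1.5 times.

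Changes of sign occurred for uncalled differences near 0 alone. After median centring Itga3 in mutB1 against FL was 0.01, Fermt2 in ΔSAP against FL 0.02 and Itga6 in FL against control -0.03. Itga6 was 0 after quantile normalization and -0.02 to 0.04 when each array was left out, below 0 without FL replicate 3, and Fermt2 was 0 without FL replicate 3. Of 2618 recomputed gene values, 118 lost a call, 9 gained one and 6 changed sign. Among the wider lists, a fit of the lines compared alone also lost the calls of Krt14 in mutB1 against FL, Slc3a2, Tln2, Cd81 and Cd82 in ΔSAP against FL, Itga10, Slc3a2, Ilk and Ccn2 in mutB1 against control, and Krit1, Rap1a and Dst in ΔSAP against control. Median centring lost Tln2, Lims2 and Tns3 in ΔSAP against FL, Ccn2 in mutB1 against control, and Rap1a and Dst in ΔSAP against control. Averaging the probe sets of a gene changed no member, each of which has 1. It lost Dab2 in FL against control (-0.05, adjusted p = 0.429) and in ΔSAP against control (-0.11, adjusted p = 0.0408), where the second probe set is low in every line. The cause of the other losses was not tested.

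The replicate numbers share no stated origin. Deviations of same-numbered arrays correlated between -0.205 and 0.168, and at most 2 of 6 arrays in a comparison correlated best with their own number. With the replicate block 7 members were called in mutB1 against FL, 2 in ΔSAP against FL, 4 in FL against control, 2 in mutB1 against control and 4 in ΔSAP against mutB1. Over all probe sets it called 5431 in mutB1 against FL, against 6194 without it. The same counts were 3132 against 3972 in ΔSAP against FL and 3748 against 4422 in mutB1 against control. The block lost Itga5 (adjusted p = 0.0198), Cd81 (0.0171) and Cd82 (0.0121) in ΔSAP against FL, Fermt2 (0.023), Itgav (0.0211), Itgb3 (0.0106) and Ccn2 (0.0156) in mutB1 against control, and Rap1a (0.0125) in ΔSAP against control.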
